A study of Morchella importuna with 4 samples.

Results

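The Hsp20-type small heat shock proteins of the morel *Morchella importuna* were compared between the sclerotial area and the hyphal area of the same plates. Members were the rows of the gene table whose description named Hsp20, Hsp26, Hsp30, Hsp42, a small heat shock protein or alpha-crystallin, with Hsp12 left out, together with JGI 574167 and JGI 535891. This rule took 7 of the 11599 genes in the table, and both of the genes given by number also matched it by description. They were JGI 574167, JGI 535891, JGI 565447, JGI 493813, JGI 500827, JGI 544858 and JGI 511227, the numbers being those of the JGI gene models (Morco1) in the table, which gave no genome positions. For 6 genes the description was HSP20-like chaperone, and JGI 544858 was described as an expressed protein whose closest database entry was a heat shock protein Hsp20. "HSP20-like" is also the name of a fold that some other co-chaperones share, and whether each of the 7 proteins holds an alpha-crystallin domain was not tested.

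The strain was grown on PDA (potato dextrose agar) plates at 20 °C to the sclerotial initiation (SI) stage, and both areas came from these plates. SII was the plate centre, where sclerotia (compact, nutrient-storing bodies of swollen hyphal cells) begin to form, and SIO was the plate margin, which held ordinary hyphae. Tissue of 2 plates, called individuals in the labels, was pooled per replicate, and 2 replicate libraries per area were sequenced. No gene deletion or treatment separated the groups, so area and distance from the inoculum, with any difference in the age of the mycelium, cannot be told apart. Because the areas were defined by their place on the plate and no marker genes of sclerotial cells were fixed, the make-up of each tissue was not tested.

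Small heat shock proteins are chaperones that work without ATP. Through a conserved alpha-crystallin domain they form oligomers, bind unfolding proteins and keep them from aggregating until the ATP-driven Hsp70, its Hsp40 partners and the Hsp100 disaggregase refold them. In fungi they are known as proteins of the heat response, and in *Saccharomyces cerevisiae* the family members Hsp26 and Hsp42 also accumulate as cells enter stationary phase.

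Expression was given as FPKM, a fragment count scaled to the exon length of the gene and to the mapped fragments of the library, so that levels can be compared between genes. The whole reads behind these values summed to between 23108142 and 27992815 per library. The libraries are called SII-1, SII-2, SIO-1 and SIO-2 after the table's own column numbers, which could not be tied to the replicate numbers of the sample labels. SII-1 and SII-2 differed more from each other than SIO-1 and SIO-2 did. Over the 8906 genes tested, which reached 1 FPKM in 2 or more of the libraries, the SD of the log2 gap was 0.68 between the SII libraries and 0.23 between the SIO libraries. A gene was called differentially expressed when its adjusted p in limma (Benjamini-Hochberg) was below 0.01 and its log2 fold change was 1 or more in either direction. The p-values measure the spread between these pooled samples only, and with 2 libraries against 2 an exact two-sided permutation test of a single value cannot go below 0.33. In bulk tissue, fewer cells of a type and less RNA per cell cannot be told apart.

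Expression of the Hsp20-type genes was higher in SII than in SIO. The members were chosen with earlier results of these data known, so the comparisons with all genes only describe them. Of the 7 genes, 5 were upregulated in SII, against 10.3% of all genes tested. All 7 passed the filter on low values, but JGI 565447 did so only through its SII libraries. Its SIO values were 0.9908 and 0.2743 FPKM, both below 1 FPKM. Its higher values in SII, without overlap, were thus fixed by the filter, and it is among the genes counted here. None of the members was downregulated by limma (0 of 7), against 12.2% of all genes tested. At an unadjusted p under 0.05 limma had 7 higher and 0 lower. This cut is much looser than the threshold for a call, and the share of all genes that met it in this fit was not computed. In the fit without a filter, 5305 of the 11599 genes met it in one direction or the other. The FPKM of both SII libraries lay above those of both SIO libraries for 7 of 7 members, an ordering that 35.6% of all genes tested also had. The median log2 fold change was 3.09 over the members, which ran from 0.43 to 6.94, and it was -0.11 over all genes tested. JGI 500827 and JGI 511227 were the members that did not pass the threshold.

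The calls needed both SIO libraries, since the spread was otherwise estimated from the SII pair alone, whose libraries differed more. When SIO-1 or SIO-2 was left out, none of the members was called by limma, while every fold change kept its sign. The whole table lost calls in the same way, with 76 genes higher and 3 lower without SIO-1, and 86 higher and 2 lower without SIO-2. When SII-1 or SII-2 was left out, 6 members were called, since the spread was then estimated from the SIO pair alone, and 1331 and 1778 genes of the whole table were called higher.

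**Figure D1:**
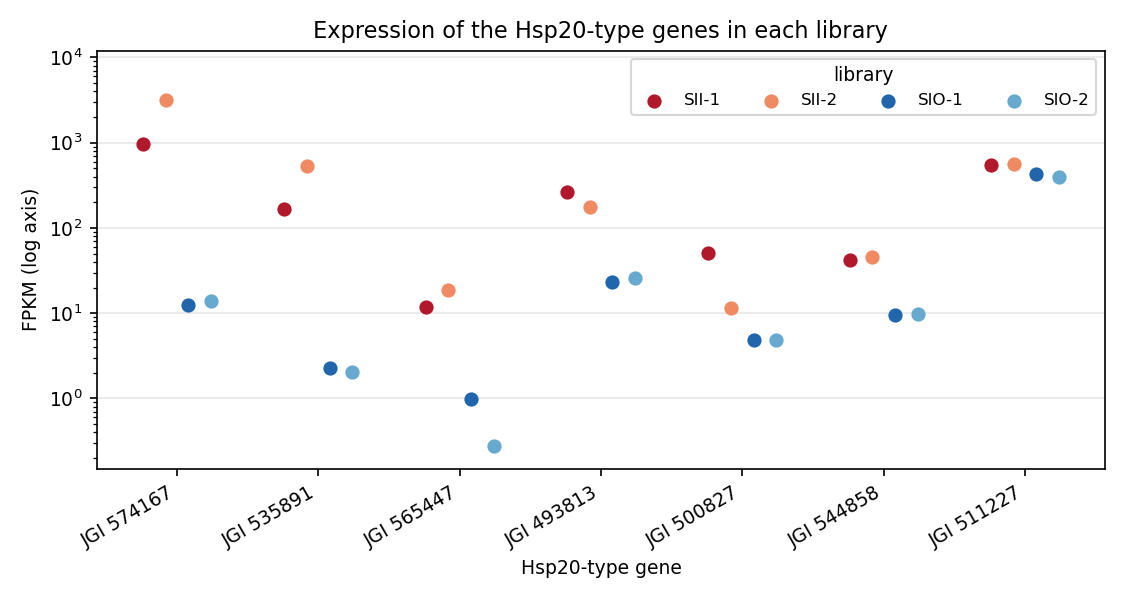
FPKM (log axis) of the 7 Hsp20-type genes in each of the 4 libraries, ordered by log2 fold change; each point is a library. The SII points lie above the SIO points for every gene, by 69.0-fold for JGI 574167, 72.5-fold for JGI 535891 and 1.29-fold for JGI 511227 (lower SII over higher SIO library).

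JGI 574167 and JGI 535891 showed the largest differences. The closest database entries of both were Hsp30 proteins, a name used in *Neurospora crassa* for a small heat shock protein made after heat shock. JGI 574167 had an FPKM of 972.3 in SII-1 and 3179 in SII-2, and of 12.62 in SIO-1 and 14.09 in SIO-2. Both SII values were far above both SIO values, and SII-2 was 3.27 times SII-1. In rank of FPKM it was gene 124 in SII-1 and gene 37 in SII-2, but gene 5815 in SIO-1 and gene 5492 in SIO-2, near the middle of the table. The SII libraries averaged 2075 ± 1560 FPKM and the SIO libraries 13.4 ± 1.05 FPKM (SD, n = 2 libraries each), and the lower SII library was 69.0 times the higher SIO library. On the log2(FPKM + 1) scale the fold change was 6.94 (SE 0.59, limma adjusted p = 0.00355). It was 7.79 without SII-1 and 6.09 without SII-2, and was called in both cases, but not without SIO-1 (adjusted p = 0.0163) or SIO-2 (adjusted p = 0.0153).

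JGI 535891 followed the same course at a lower level. Its FPKM was 166.4 in SII-1 and 536.0 in SII-2, and 2.295 in SIO-1 and 2.063 in SIO-2. The areas did not overlap, SII-2 was again the higher SII library, and the SIO values rested on few reads, 61 and 54, against 3927 and 11777 in SII. The SII mean of 351 ± 261 FPKM stood against an SIO mean of 2.18 ± 0.164 FPKM (SD, n = 2 libraries each), with the lower SII library 72.5 times the higher SIO library. The log2 fold change was 6.56 (SE 0.59, limma adjusted p = 0.00382), and it was 7.40 without SII-1 and 5.72 without SII-2. The call was lost without SIO-1 (adjusted p = 0.0177) or SIO-2 (adjusted p = 0.018).

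The 2 genes moved nearly in parallel. JGI 574167 was 5.84 and 5.93 times JGI 535891 by FPKM in SII-1 and SII-2, and 5.50 and 6.83 times in SIO-1 and SIO-2. This ratio varied far less than either gene did between the areas. As a measure of likeness, the 4 log2(FPKM + 1) values of each gene were centred on the gene's own mean, and the Euclidean distance between genes was taken over the 4 libraries. This distance was 0.42 between JGI 574167 and JGI 535891, the smallest of any pair of members, and each was the nearest of 3756 annotated genes to the other. How reads shared by similar gene copies were counted is not given in the sources used here.

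Other genes near this pair in profile were no heat shock proteins. The next nearest to both was JGI 552837, annotated as a C-4 methylsterol oxidase, an enzyme of sterol synthesis, at a distance of 1.12 from JGI 574167 and 0.85 from JGI 535891. Its FPKM was 209.4 in SII-1, 401.8 in SII-2, 3.088 in SIO-1 and 4.225 in SIO-2, so that SII-2 was the higher SII library here too. The other genes among the 5 nearest to both were JGI 492735, a gamma-glutamylputrescine oxidoreductase, JGI 493572, a GroES-like protein, and JGI 494516, a DUF1960 protein whose closest entry was the ribosome maturation protein SBDS. They lay at distances of 1.27 to 1.43 from one or the other gene, and their SII libraries were close to each other, as with 12036 and 10649 FPKM for JGI 494516. With 4 libraries in 2 areas, every gene with a large difference between areas has a profile of this kind.

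JGI 565447 had the lowest mean FPKM of the members in both areas, although in SII-2 it stood above JGI 500827. Its closest database entry was also an Hsp30 protein. The FPKM was 11.82 in SII-1 and 18.96 in SII-2, and 0.9908 in SIO-1 and 0.2743 in SIO-2. The areas did not overlap, but with both SIO values below 1 FPKM the filter had fixed this. The SIO values came from 22 and 6 reads. Their exact Poisson 95% intervals, which cover counting error only, were 0.621 to 1.5 FPKM in SIO-1 and 0.101 to 0.597 FPKM in SIO-2. The log2 fold change was 3.33 (SE 0.35, limma adjusted p = 0.00482), with means of 15.4 ± 5.05 and 0.633 ± 0.507 FPKM (SD, n = 2 each). Adding 1 to the FPKM shrinks the change of a gene this low, and the log2 fold change was 4.56 with a pseudocount of 0.1 and 4.77 in limma-voom on the recovered reads.

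JGI 493813 was upregulated from a level that was not low in SIO. Its FPKM was 263.1 in SII-1 and 175.5 in SII-2, and 23.10 in SIO-1 and 25.59 in SIO-2. Here SII-1 was the higher SII library, by 1.5 times, and the areas were apart by 6.86 times between their nearest libraries. The log2 fold change was 3.09 (SE 0.24, limma adjusted p = 0.00316), with means of 219 ± 62.0 and 24.4 ± 1.76 FPKM (SD, n = 2 each). In SIO it was the second most abundant member.

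JGI 544858, the member described as an expressed protein, showed the most even values among the called genes. The FPKM was 42.06 in SII-1 and 45.95 in SII-2, and 9.621 in SIO-1 and 9.840 in SIO-2. The higher library was 1.09 times the lower in SII and 1.02 times in SIO, and the lower SII library was 4.28 times the higher SIO library. The log2 fold change was 2.07 (SE 0.17, limma adjusted p = 0.00331), with means of 44.0 ± 2.75 and 9.73 ± 0.154 FPKM (SD, n = 2 each).

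JGI 500827 had higher values in SII but did not pass the threshold. It had an FPKM of 51.26 in SII-1 and 11.59 in SII-2, and of 4.873 in SIO-1 and 4.835 in SIO-2. Both SII values were above both SIO values, but SII-1 was 4.42 times SII-2, the widest SII gap of any member. The log2 fold change was 2.13 (SE 0.71, limma adjusted p = 0.0641), close to that of JGI 544858 with a larger SE (0.71 against 0.17). Without SII-1 it was 1.1 and without SII-2 it was 3.16, and limma called it in both cases, with the spread then taken from the SIO pair.

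JGI 511227 was the member with the smallest difference and the most constant expression. Its FPKM was 546.4 in SII-1 and 559.0 in SII-2, and 424.1 in SIO-1 and 394.1 in SIO-2. The libraries of each area were within 1.08 times of each other and the areas did not overlap, with means of 553 ± 8.97 and 409 ± 21.2 FPKM (SD, n = 2 each). The log2 fold change was 0.43 (SE 0.15, limma adjusted p = 0.0717), which met neither part of the threshold. It was also the longest member, with 1257 exon bases against 471 to 942 for the others, as implied by FPKM and reads.

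The order of the members by FPKM differed between the areas. In SII it ran from JGI 574167 through JGI 511227, JGI 535891, JGI 493813, JGI 544858 and JGI 500827 to JGI 565447. The libraries of JGI 535891 and JGI 493813 overlapped there, as did those of JGI 544858 and JGI 500827, and of JGI 500827 and JGI 565447. In SIO the order was JGI 511227, JGI 493813, JGI 574167, JGI 544858, JGI 500827, JGI 535891 and JGI 565447, with no overlap between neighbours. JGI 574167 thus stood above JGI 511227 in both SII libraries and below it in both SIO libraries.

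The make-up of the family's expression shifted accordingly. The summed FPKM of the 7 genes was 2053 in SII-1, 4526 in SII-2, 477.6 in SIO-1 and 450.8 in SIO-2, with the mean 7.09 times higher in SII. JGI 511227 made up 88.8% and 87.4% of this sum in SIO-1 and SIO-2, but 26.6% and 12.4% in SII-1 and SII-2. JGI 574167 made up 47.4% and 70.2% in SII-1 and SII-2, and 2.64% and 3.13% in SIO-1 and SIO-2. Of the FPKM of all genes, the members held 0.357% ± 0.189 in SII and 0.0583% ± 0.00248 in SIO (SD over 2 libraries each). Without JGI 574167 and JGI 535891 the share was 0.0995% and 0.0880% in SII-1 and SII-2, and 0.0582% and 0.0545% in SIO-1 and SIO-2, so the areas still did not overlap.

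**Figure D2:**
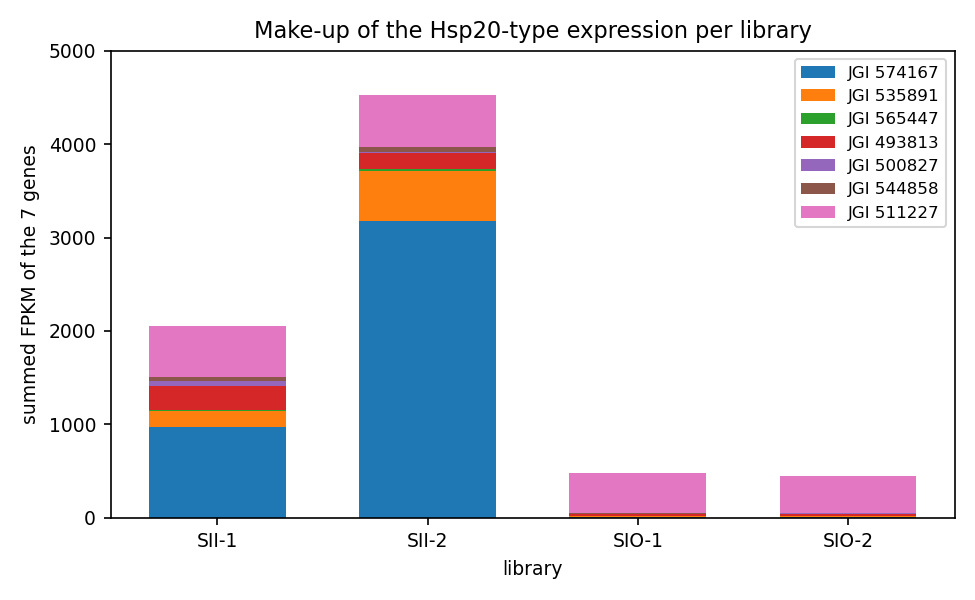
Summed FPKM of the 7 Hsp20-type genes in each library, with each gene's part stacked in colour. JGI 511227 is most of the bar in SIO (88.8% and 87.4%), and JGI 574167 is the largest part in SII (47.4% and 70.2%).

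The gap between the SII libraries was not shared by the whole family. SII-2 was above SII-1 for 5 of the 7 members, against 48.0% of all genes tested. On the log2(FPKM + 1) scale SII-2 minus SII-1 was 1.71 for JGI 574167 and 1.68 for JGI 535891, gaps wider than those of 97.1% and 96.9% of the genes tested. JGI 500827 had a gap of -2.05, in the opposite direction and wider than that of 98.6% of genes. JGI 565447 (0.64) and JGI 493813 (-0.58) were closer to the typical gene, and JGI 544858 (0.12) and JGI 511227 (0.03) had narrower gaps than most. The pair with the largest differences between areas and JGI 500827 therefore varied most within SII, and in opposite directions.

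**Figure D3:**
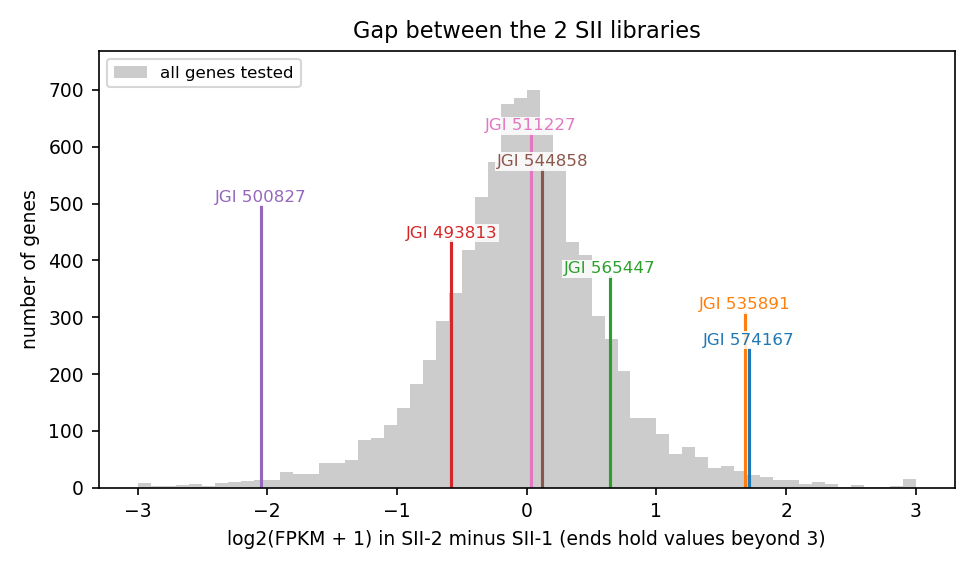
Histogram of the gap between the SII libraries, log2(FPKM + 1) in SII-2 minus SII-1, over the 8906 genes tested (grey, number of genes), with a coloured line at the gap of each Hsp20-type gene; the heights of the lines carry no value. JGI 574167 (1.71) and JGI 535891 (1.68) lie in the right tail and JGI 500827 (-2.05) in the left tail of the distribution.

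The authors' mean scaled read counts gave a further view of SIO. They could be rebuilt in whole reads only with a further SIO library beside SIO-1 and SIO-2, for which the table holds no FPKM, and which was not used as a replicate. In scaled reads, counts divided by a size factor per library, this library stood at 569.6 for JGI 574167 and 129.2 for JGI 535891, which is 3.36 and 2.64 times the mean of SIO-1 and SIO-2. It lay above both SIO libraries for 5 of the 7 members, against 40.5% of the genes tested. The lower SII library remained 21.3 times this library for JGI 574167 and 28.5 times for JGI 535891. For the other members the ratio was 12.2 for JGI 565447, 4.22 for JGI 493813, 1.70 for JGI 500827, 3.57 for JGI 544858 and 1.52 for JGI 511227, so the lower SII library was above the further SIO library in all 7.

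The members were short genes, and 6 of the 7 were shorter than the median exon length of 1245 bases. Over the 3540 genes tested with lengths from 471 to 1257 bases, the median log2 fold change was 0.10. After the trend of each library with length was removed, an alternative chosen after seeing the data, 5 members were again called, among 966 genes higher and 646 lower in the whole table, and JGI 574167 had a log2 fold change of 6.78.

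The chaperones that work with small heat shock proteins were compared as lists taken from the descriptions. Hsp100, the disaggregase that pulls proteins out of aggregates, rose with the small heat shock proteins. The list had a single gene, JGI 486803, described as Hsp98/Hsp104/ClpA, with an FPKM of 324.7 and 338.7 in SII-1 and SII-2, and 48.16 and 56.10 in SIO-1 and SIO-2. Its log2 fold change was 2.65 (SE 0.16, limma adjusted p = 0.00205), within the range of the called members, and the call was lost without SIO-1 or SIO-2. The 3 Hsp12 genes, small stress proteins that are not of the alpha-crystallin type, were all upregulated, against 10.3% of all genes tested. Their median log2 fold change was 7.5. The most abundant of them was JGI 608569, with an FPKM of 8043 and 7283 in SII-1 and SII-2, and 18.57 and 26.38 in SIO-1 and SIO-2.

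The Hsp70 and Hsp40 lists held calls in both directions. Of 10 Hsp70 and Hsp110 genes 1 was higher and 3 were lower in SII, against 10.3% and 12.2% of all genes tested, with a median log2 fold change of -0.34. Their summed FPKM was nonetheless higher in SII, with 5878 and 5648 in SII-1 and SII-2, and 3830 and 4549 in SIO-1 and SIO-2. Most of this sum in every library came from JGI 493970, so it does not describe the other genes of the list. The summed FPKM of all genes was also higher in SII, with 919062 and 921729 in SII-1 and SII-2, and 795743 and 797690 in SIO-1 and SIO-2. The gene that rose was JGI 531797, whose closest entry was BiP/Kar2, the Hsp70 of the endoplasmic reticulum, at 2.09 (SE 0.29, limma adjusted p = 0.00775). The largest fall was that of JGI 515014, like a Hsp70 of the 12A type, at -2.45 (SE 0.26, adjusted p = 0.00482). The most abundant Hsp70, JGI 493970, had an FPKM of 4512 and 4448 in SII-1 and SII-2, and 2407 and 3032 in SIO-1 and SIO-2. Its log2 fold change of 0.73 (SE 0.23, limma adjusted p = 0.0548) did not pass the threshold.

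Of 22 rows in the Hsp40 list, 3 were higher and 2 lower, near the shares over all genes, with a median log2 fold change of 0.26. Their summed FPKM was 1824 and 1743 in SII-1 and SII-2, and 1328 and 1333 in SIO-1 and SIO-2. The largest rise was that of the DnaJ-domain gene JGI 562140, at 1.6 (SE 0.17, limma adjusted p = 0.0047), and the most abundant gene was JGI 537869, at 1.01 (SE 0.19, adjusted p = 0.0142), which was not called. The largest fall, JGI 515983 at -1.52 (SE 0.20, adjusted p = 0.00715), was of an FtsJ-domain tRNA methyltransferase that the pattern had taken by its letters. Without the rows of other proteins 3 of 20 were higher and 1 lower. The falls depend on the scaling, since 0 Hsp40 rows were called lower under median-ratio scaling or quantile normalization.

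The list of Hsp90 and its co-chaperones also held calls in both directions, with a median log2 fold change of -0.23 over its 10 rows. Of these rows 1 was higher and 2 were lower, or 1 under median-ratio scaling, against 10.3% and 12.2% of all genes tested. The pattern had taken 2 rows of other proteins, and without them 1 of 8 was higher and 2 were lower. The gene that rose was JGI 531549, the Hsp90 activator AHA1, at 1.28 (SE 0.14, limma adjusted p = 0.0052). The lowest was JGI 242906, an expressed protein, at -2.38 (SE 0.18, adjusted p = 0.00301). Its closest entry was named ATPase of HSP90 chaperone/DNA topoisomerase II/histidine kinase, a name that covers other proteins besides Hsp90. The most abundant was JGI 481380, the Hsp90 Hsp82 itself, with 2369 and 2457 FPKM in SII-1 and SII-2, and 1074 and 1347 FPKM in SIO-1 and SIO-2, which was not called (1.0, SE 0.21, adjusted p = 0.0185). Most chaperonins had lower values in SII. Of 9 genes 2 were higher and 3 lower, against 10.3% and 12.2% of all genes tested. The median log2 fold change was -1.6, and 7 of the genes lay between -2.09 and -1.46. The number called lower was 1 under median-ratio scaling. It rose when either SII library was left out, as did the number of all genes called lower. JGI 501639, the Hsp10-type chaperonin Cpn10 that caps mitochondrial Hsp60, rose by 2.06 (SE 0.14, adjusted p = 0.00263). JGI 519882, the zeta subunit of the cytosolic T-complex chaperonin, had the largest fall at -2.09 (SE 0.25, adjusted p = 0.00588). The list of regulators of stress transcription held 1 gene, JGI 550812, described as the response regulator SKN7, which was not called (-1.01, SE 0.20, adjusted p = 0.0162). Its pattern also looked for heat shock factors and the transcription factors Msn2 and Yap1 by description, and took no other row. The paper reports msn2 and yap1 genes, so regulators described otherwise are missing from this list. Without SIO-1 or SIO-2, limma kept the calls of the 3 Hsp12 genes and made 0 calls in the other lists.

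**Figure D4:**
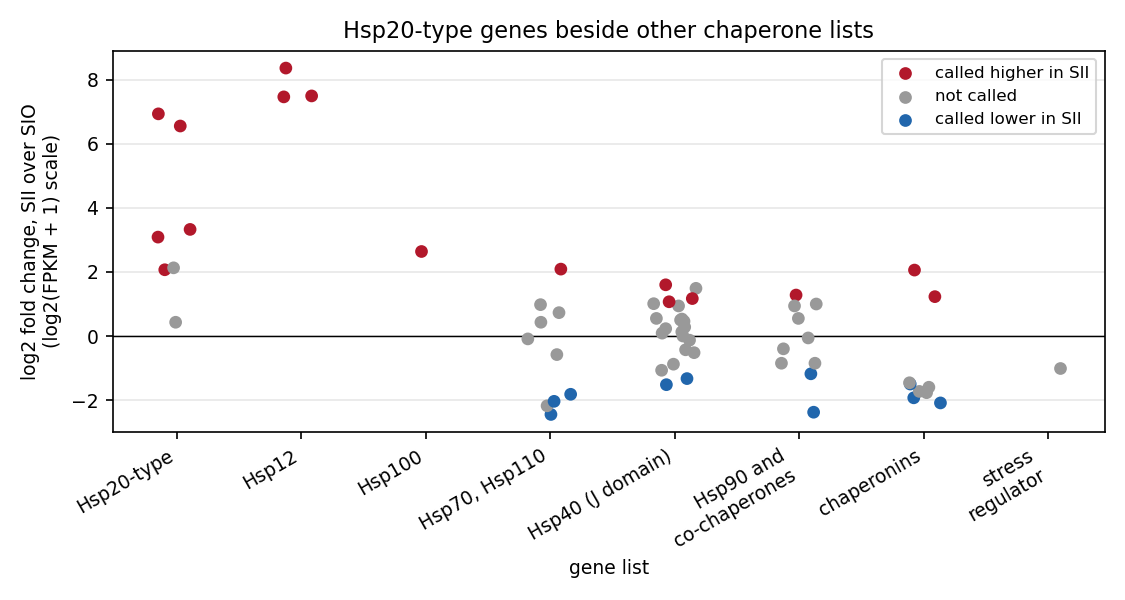
Log2 fold change, SII over SIO on the log2(FPKM + 1) scale, of each tested gene in the Hsp20-type family and in the other chaperone lists; each point is a gene, in red where called higher in SII, in blue where called lower and in grey where not called. The Hsp20-type genes lie between 0.43 and 6.94 with 5 called higher and 0 lower. The Hsp70, Hsp40, Hsp90 and chaperonin lists have calls in both directions, as all genes tested do (10.3% higher and 12.2% lower).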

How the data were processed

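Total RNA of 4 libraries, 2 of SII and 2 of SIO, was sequenced by the authors on an Illumina platform. TopHat2 2.1.0 is named in the submitters' processing notes, and the counting program is not given in the sources used here. The deposited table gives each of 11599 genes an FPKM in every library, computed by the authors. The deposited signal columns hold the authors' mean of size-factor-scaled read counts per area. Columns of the authors' fold changes and p-values were not used.

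From the scaled counts and FPKM, whole reads were recovered within 0.01 of a read for 99.07% to 100% of genes per library, those of SIO over the 10439 genes with SII reads. The 8906 genes that reached 1 FPKM in 2 or more of the 4 libraries entered the limma 3.58.1 (R 4.3.3) fit as log2(FPKM + 1), with a single term for area, a mean-variance trend and Benjamini-Hochberg adjustment over all genes tested. Calls needed an adjusted p below 0.01 and a log2 fold change of 1 or more in either direction. The scripts were tested on simulated data. Tables and figures used Python 3.11.15, pandas 2.3.3, numpy 2.4.6, scipy 1.17.1 and matplotlib 3.10.9. Exon length is the length implied by FPKM, reads and library total.

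All 7 members are named. For JGI 574167 and JGI 535891 the 5 nearest annotated genes are named, and from each chaperone list the called gene with the largest rise, that with the largest fall and the most abundant gene. The lists were text patterns on the descriptions (Hsp12, Hsp100, Hsp70 and Hsp110, Hsp40, Hsp90 and co-chaperones, chaperonins, and stress regulators of transcription). The members and lists were chosen with earlier results of these data known. Alternatives were another pseudocount, other filters, median-ratio and quantile scaling, no mean-variance trend, another threshold, limma-voom on the recovered reads, leaving out each library and removal of the length trend. The RefSeq annotation of another strain was not matched to these gene models.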

Additional observations from a re-analysis of the deposited data

Results flagged for a closer look

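The further SIO library implied by the authors' mean scaled counts stood above both SIO-1 and SIO-2, in scaled reads, for 5 members. These data are outside the comparison of areas, since the table gives no FPKM for this library. The values were 569.6 for JGI 574167, 129.2 for JGI 535891, 514.5 for JGI 493813, 114.9 for JGI 500827 and 138.8 for JGI 544858. They were 3.36, 2.64, 1.87, 1.55 and 1.19 times the mean of SIO-1 and SIO-2, against authors' means for SII of 28256, 8480, 2543, 483 and 550 scaled reads. A value above both SIO libraries was also found for 40.5% of the genes tested. JGI 565447, at 17.95 scaled reads, and JGI 511227, at 10588, were not above both.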

How the results depend on the processing

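No member changed sign in any of 13 alternatives. Among those that kept every library, only the fit without a filter lost the 5 calls of the Hsp20-type genes. The looser threshold of 0.05 could not lose a call. With every gene kept, low values included, limma called 0 members and 0 genes of the whole table in either direction, with 6 members higher and 0 lower, and 5305 genes in all, at an unadjusted p under 0.05. The members' adjusted p then ran from 0.0138 to 0.173. Leaving out a library gave 0 to 6 members called higher, 76 to 1778 genes higher and 2 to 2133 genes lower. An adjusted p under 0.05 gave 1386 higher and 1876 lower, and removal of the length trend (added after seeing the data) left 966 higher and 646 lower. Median-ratio scaling, which raises the median log2 fold change of all genes by 0.11, gave 1010 higher and 739 lower in place of 914 and 1084, and quantile normalization gave 966 and 872. For single members the log2 fold change ran from 6.09 to 7.79 (JGI 574167), 5.72 to 7.40 (JGI 535891), 3.01 to 4.77 (JGI 565447), 2.80 to 3.38 (JGI 493813), 1.1 to 3.16 (JGI 500827), 1.91 to 2.20 (JGI 544858) and 0.38 to 0.55 (JGI 511227).

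For the lists, leaving out a library gave 0 to 1 Hsp100 gene higher, 0 to 2 Hsp70 genes higher and 0 to 4 lower, 0 to 6 Hsp40 rows higher and 0 to 3 lower, 0 to 2 Hsp90 rows higher and 0 to 3 lower, 0 to 2 chaperonins higher and 0 to 7 lower, and 0 to 1 stress regulator lower. Median-ratio scaling gave 0 Hsp40 rows, 1 Hsp90 row and 1 chaperonin lower, quantile normalization gave 0 Hsp40 rows lower, and leaving out rows of other proteins, chosen after seeing the data, gave 1. No paired analysis was possible because the table's columns could not be tied to the replicate numbers of the labels, which do not say that equal numbers share plates. A block on the table's own column numbers was not run. Leaving out members with a p23, CS, Sgt1 or NudC description gave no other value, since none of the 7 has one.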
